A study of Mus musculus with 2 samples.

Results

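The circadian clock genes described here are the 10 genes Arntl, Clock, Per1, Per2, Per3, Cry1, Cry2, Nr1d1, Nr1d2 and Dbp, taken by name from the 38924 Ensembl genes of the series. All 10 were found under their symbols, had more than 100 counts over both libraries and entered every comparison. RNA came from whole pancreatic islets, in which the hormone cells of the pancreas are gathered. The islets were those of male CAST/EiJ (CAST) mice, inbred from wild-caught Mus musculus castaneus, and of male C57BL/6J (B6) mice, the strain of the mouse reference genome. Both groups carried no engineered allele or drug treatment in the labels, were 10 weeks old, ate standard chow and lived under 12 hours of light per day, with lights on at 6 AM. Each strain gave 1 library, made from 250 islets out of a pool of 2 mice. The islets were held in buffer with 16.7 mM glucose during isolation. The hour of the day at which the mice of each strain were killed is not stated in the labels, so strain and hour cannot be told apart.

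The mammalian clock is a feedback loop of transcription that runs in most cells. The proteins of Arntl (also called Bmal1) and Clock form a dimer that binds E-box sequences and activates the Per, Cry, Nr1d and Dbp genes. PER and CRY proteins then inhibit the dimer, while the NR1D receptors (REV-ERBs) repress Arntl through ROR elements and compete there with the ROR activators. Transcripts of Arntl therefore peak in most mouse tissues at the opposite phase of the day to those of Nr1d1 and Dbp, with the Per genes between and Cry1 late. In beta cells the loop is known to be needed for normal insulin secretion.

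The CAST library had 104324631 expected counts and the B6 library 76600903. With 1 library per strain there is no replicate error, so differences between strains were given no test, and every 95% interval below covers counting error only. Log2 ratios are of CAST over B6, on counts scaled by TMM, a method that sets the bulk of genes to equal levels, with 0.5 added to each. Its median over the 14768 genes with 100 or more counts was 0.02. Levels are also given as TPM, a share of all transcripts that is corrected for transcript length. Log2 ratios of CAST over B6 given by TPM have 1 added to each TPM. This pulls the ratios of genes at low TPM toward 0, so they differ from the plain ratio of the printed levels. The labelled tissue was checked with the beta cell genes Ins1, Ins2, Slc2a2 and Mafa, all 4 of which were detected and which summed to 533660 TPM in CAST and 459290 TPM in B6. In bulk islets a lower level per cell and fewer cells of a type cannot be told apart.

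Nr1d1, Dbp and Nr1d2 were higher in CAST, with the 3 highest ratios of the clock genes, and Per1 was higher by less. Arntl, both Cry genes, Per2 and Per3 were lower in CAST, with Per3 the lowest. Clock lay near the median of all genes. The 10 log2 ratios ran from -0.96 for Per3 to 1.39 for Nr1d1, a span of 2.35, and their median was -0.12. Of the 10 genes 5 were above 0, against 51.7% of all genes tested.

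**Figure D1:**
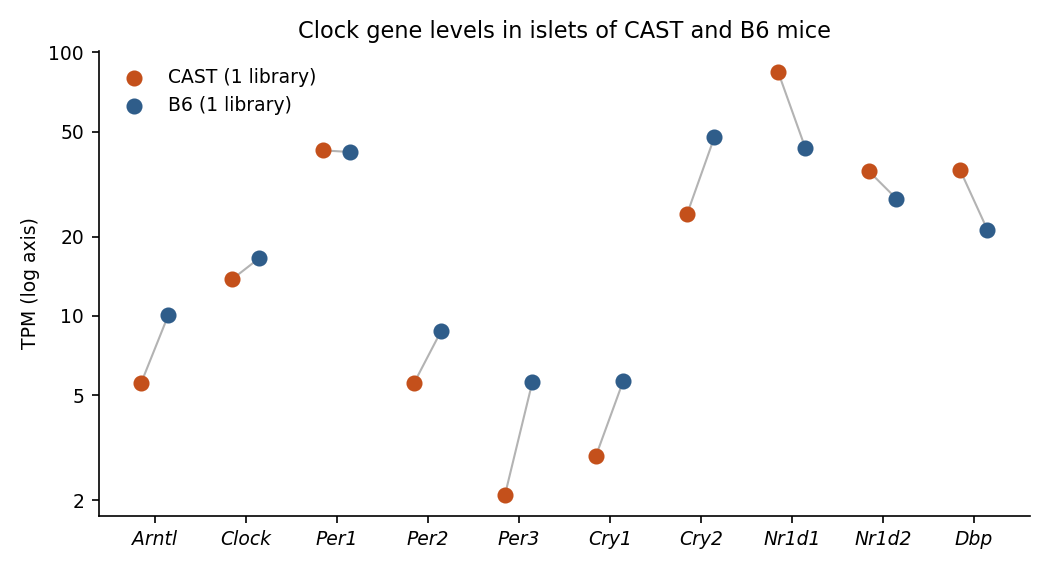
Levels of the 10 clock genes in TPM on a log axis, with 1 point for the CAST library and 1 for the B6 library per gene. Nr1d1 stands at 84.2 TPM in CAST and 43.3 TPM in B6, while Per3 stands at 2.10 TPM in CAST and 5.61 TPM in B6.

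At least 2-fold higher in CAST were 2 of the 10 clock genes, Nr1d1 and Dbp, beside 7.18% of all genes. None was at least 2-fold lower in CAST, where 5.99% of all genes were. At 1.5-fold, 3 of 10 were higher (Nr1d1, Nr1d2 and Dbp), beside 12.4% of all genes, and 2 of 10 were lower (Per3 and Cry1), beside 12.8%. Every clock gene had more than 1000 counts over both libraries. Among the 10846 genes past that minimum, 3.99% were 2-fold or more higher in CAST and 2.81% lower, and at 1.5-fold the shares were 8.11% and 8.25%. The counts past 2-fold depended on scaling. With total counts Dbp came to 0.99 and Per3 to -1.12. By TPM with 1 added, Nr1d1 came to 0.94, Dbp to 0.73 and Per3 to -1.09. All genes together had medians of -0.14 with total counts and -0.26 by TPM with 1 added.

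**Figure D2:**
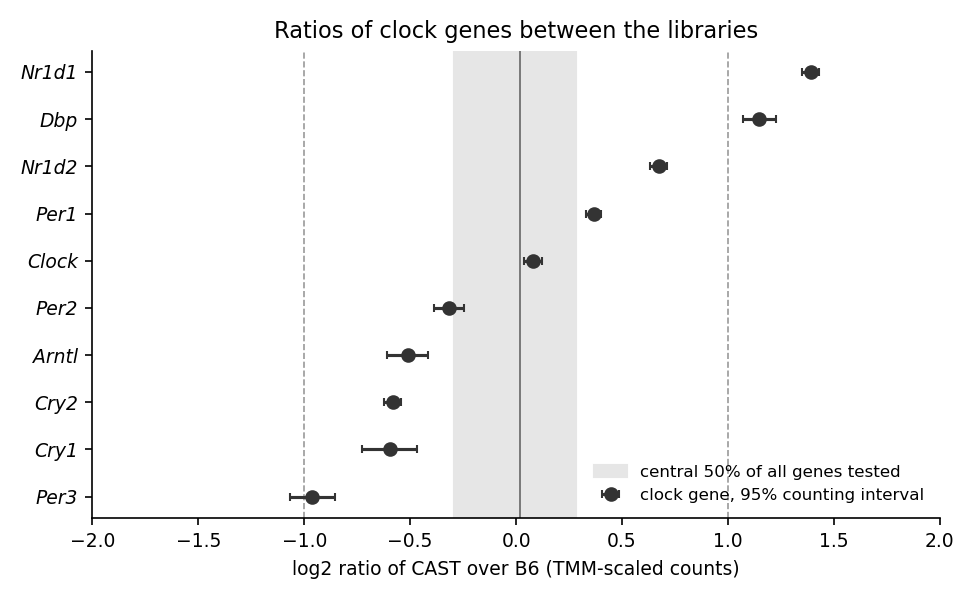
Log2 ratio of CAST over B6 for each clock gene (points) with its 95% counting interval (bars), the central 50% of all genes tested (grey band, -0.29 to 0.28), their median (solid line) and 2-fold differences (dashed lines). Nr1d1 and Dbp lie above 1, Per3 lies at -0.96, and of the 10 genes Clock alone falls inside the grey band.

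Arntl and Clock, the activators, did not share a direction. Arntl (ENSMUSG00000055116, chromosome 7, 113207465 to 113314126, GRCm38) had 1576 counts in CAST and 1840 in B6, or 5.55 TPM in CAST and 10.1 TPM in B6. Its log2 ratio was -0.51 (95% interval -0.61 to -0.41), which is 1.43-fold lower in CAST. Clock (chromosome 5, 76209868 to 76304792) had 10236 counts in CAST and 7937 in B6, or 13.8 TPM in CAST and 16.6 TPM in B6, with a log2 ratio of 0.08 (0.04 to 0.12). The sign for Clock turned with total counts (-0.08) and by TPM (-0.25), so that it lay at the median of all genes and no direction is given for it. Clock transcripts are known to cycle little in many tissues, whereas those of Arntl cycle strongly.

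The nuclear receptor genes Nr1d1 and Nr1d2 were both higher in CAST. Nr1d1 (REV-ERB alpha, ENSMUSG00000020889, chromosome 11, 98767932 to 98775333) had 20631 counts in CAST and 6442 in B6, or 84.2 TPM in CAST and 43.3 TPM in B6. Its log2 ratio was 1.39 (1.35 to 1.43), which is 2.62-fold higher in CAST, and 5.13% of all genes tested had a ratio as high or higher. Nr1d2 (REV-ERB beta, chromosome 14, 18204054 to 18239127) had 15060 counts in CAST and 7731 in B6, or 35.3 TPM in CAST and 27.8 TPM in B6, and was 1.59-fold higher in CAST (log2 0.67, 0.63 to 0.71). Nr1d1 was the most abundant of the clock genes in CAST, and the second after Cry2 in B6.

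Nr1d1 is read from the opposite strand to Thra, a thyroid hormone receptor gene, and 263 of its exonic bases (8.55%) lie in exons of Thra. No source used here states whether counting used strand, so reads of this stretch cannot be assigned by strand. Thra had 6080 counts in CAST and 4709 in B6, a log2 ratio of 0.08. With the counts of both genes added the log2 ratio was 0.97, below 2-fold. That sum takes in all counts of Thra and not only the shared stretch, so it does not measure how many reads were misassigned.

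Dbp, a transcription factor of the PAR bZIP family that passes the rhythm on to metabolic genes through D-box sequences, was also higher in CAST. Dbp (ENSMUSG00000059824, chromosome 7, 45705088 to 45710203) had 5108 counts in CAST and 1885 in B6, or 35.7 TPM in CAST and 21.2 TPM in B6. It was 2.22-fold higher in CAST (log2 1.15, 1.07 to 1.23). The files divide Dbp among 5 transcripts, of which 4 have no entry in GENCODE M21, the annotation used for positions and types. These 4 held 38.1% of the counts of the gene in CAST and 43.1% in B6. The annotated coding transcript Dbp-201 alone had a log2 ratio of 1.27. Of the exonic bases of Dbp 539 (18.0%) overlap Sphk2, a sphingosine kinase gene on the other strand with 5304 counts in CAST and 4499 in B6 (log2 -0.05), and with its counts added the log2 ratio was 0.42. Here too the sum takes in all counts of Sphk2, so it does not measure how many reads were misassigned.

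The 3 Per genes, which encode inhibitors of the dimer, went different ways. Per1 (chromosome 11, 69095217 to 69109960) had 16433 counts in CAST and 10425 in B6, or 42.5 TPM in CAST and 41.8 TPM in B6, and a log2 ratio of 0.37 (0.33 to 0.40). By TPM the log2 ratio of Per1 was 0.02, which lies 0.28 above the median of all genes on that scale. Per2 (chromosome 1, 91415982 to 91459324) had 3221 counts in CAST and 3280 in B6, or 5.57 TPM in CAST and 8.80 TPM in B6, and was 1.24-fold lower in CAST (log2 -0.32, -0.39 to -0.24).

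Per3 was the lowest of the clock genes in both libraries by TPM and had the lowest ratio. Per3 (ENSMUSG00000028957, chromosome 4, 151003652 to 151044665) had 1145 counts in CAST and 1825 in B6, or 2.10 TPM in CAST and 5.61 TPM in B6. It was 1.95-fold lower in CAST (log2 -0.96, -1.07 to -0.85), although its transcripts are known to peak near those of Dbp in many mouse tissues. Part of the gap lay in 1 noncoding transcript. Per3-204, annotated as a processed transcript of 3663 bases, had 89.6 counts in CAST and 413 in B6 (log2 -2.48) and held 11.8% of the TPM of the gene in CAST and 31.8% in B6. The coding transcript Per3-201 had 959 counts in CAST and 1262 in B6, and on its own differed by log2 -0.68.

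Both Cry genes, which encode the cryptochrome inhibitors, were lower in CAST by nearly the same ratio. Cry1 (chromosome 10, 85131700 to 85185064) had 872 counts in CAST and 1080 in B6, or 2.96 TPM in CAST and 5.68 TPM in B6, and was 1.51-fold lower in CAST (log2 -0.60, -0.73 to -0.47). Cry2 (chromosome 2, 92403646 to 92434043) had 8928 counts in CAST and 10946 in B6, or 24.4 TPM in CAST and 47.6 TPM in B6, with a log2 ratio of -0.58 (-0.62 to -0.54). The ratio of Cry2 to Cry1 was 8.24 in CAST and 8.38 in B6 by TPM, and on counts it differed by log2 0.01 between the libraries (-0.12 to 0.15). Cry2 was the most abundant clock gene in B6 and the fifth in CAST.

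Ranked by TPM, the order in CAST was Nr1d1, Per1, Dbp, Nr1d2, Cry2, Clock, Per2, Arntl, Cry1 and Per3. In B6 it was Cry2, Nr1d1, Per1, Nr1d2, Dbp, Clock, Arntl, Per2, Cry1 and Per3. Several neighbours in these orders were close, such as Dbp and Nr1d2 (35.7 and 35.3 TPM) and Per2 and Arntl (5.57 and 5.55 TPM) in CAST, and Cry1 and Per3 (5.68 and 5.61 TPM) in B6. Without replicates it cannot be said which neighbours differ.

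Set against each other by phase, the 6 genes of the Per, Nr1d and Dbp group had a median log2 ratio of 0.52. Of these 6 genes 4 were above 0, beside 51.7% of all genes tested. Arntl and Clock had a median of -0.22. The difference of 0.74 cancels the scaling of counts between libraries. It ranged from 0.44 without Arntl to 1.03 without Clock when each gene was left out in turn, and it was 0.24 with Cry1 and Cry2 added to the first group. The genes of the first group were not alike: Per2 (-0.32) and Per3 (-0.96) lay with Arntl (-0.51), and Nr1d1, Dbp, Nr1d2 and Per1 lay above it.

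Ratios to Arntl within a library need no scaling between libraries. By TPM, Nr1d1 was 15.2 times the level of Arntl in CAST and 4.30 times in B6. On counts this ratio of Nr1d1 to Arntl was 3.74-fold higher in CAST (95% interval of the log2 ratio 1.80 to 2.01). Dbp was 6.44 times the level of Arntl in CAST and 2.11 times in B6, a 3.16-fold difference on counts (log2 1.66, 1.54 to 1.79). Per1 stood at 7.65 times Arntl in CAST and 4.16 times in B6 (log2 0.88, 0.78 to 0.98). The ratios of Cry1 and Cry2 to Arntl differed by log2 -0.09 (-0.25 to 0.08) and -0.07 (-0.18 to 0.03), so these 3 genes kept their proportions within counting error. Per3 was 0.379 times the level of Arntl in CAST and 0.558 times in B6 (log2 -0.45, -0.59 to -0.30). The widest pair set side by side was Dbp against Per3, at 17.0 in CAST and 3.78 in B6 by TPM (log2 on counts 2.11, 1.98 to 2.24).

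**Figure D3:**
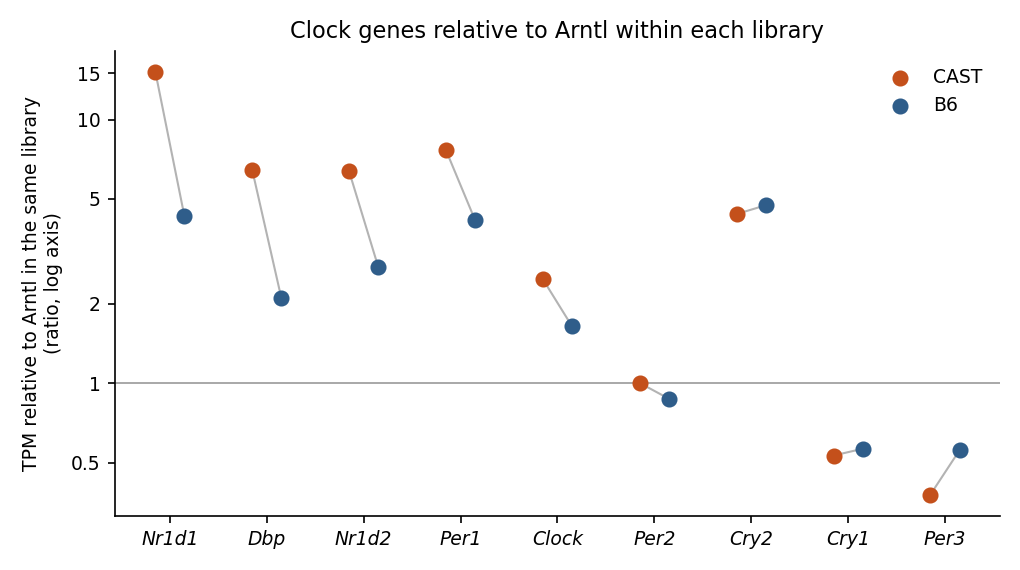
TPM of each clock gene divided by that of Arntl in the same library, on a log axis, for CAST and B6. Nr1d1 stands at 15.2 in CAST and 4.30 in B6, whereas Cry1 stands at 0.532 in CAST and 0.565 in B6 and Per3 is lower in CAST.

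Scaling of counts moved all clock genes together, whereas by TPM with 1 added they moved down by unlike amounts. From TMM to TPM, Nr1d1 went from 1.39 to 0.94 and Per3 from -0.96 to -1.09. Their order stayed almost as it was. Relative to the median of all genes under the same setting, and over 7 settings of scaling, pseudocount and depth, Nr1d1 lay between 1.21 and 1.38 and Dbp between 0.99 and 1.15. On the same measure Nr1d2 lay between 0.60 and 0.67 and Per1 between 0.28 and 0.36. Clock lay between 0.01 and 0.06. Below the median were Per2 (-0.33 to -0.31), Arntl (-0.54 to -0.49), Cry1 (-0.62 to -0.49), Cry2 (-0.68 to -0.60) and Per3 (-0.99 to -0.83). The upper ends for Arntl, Cry1 and Per3 were those by TPM, where the 1 added weighs on low levels.

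**Figure D4:**
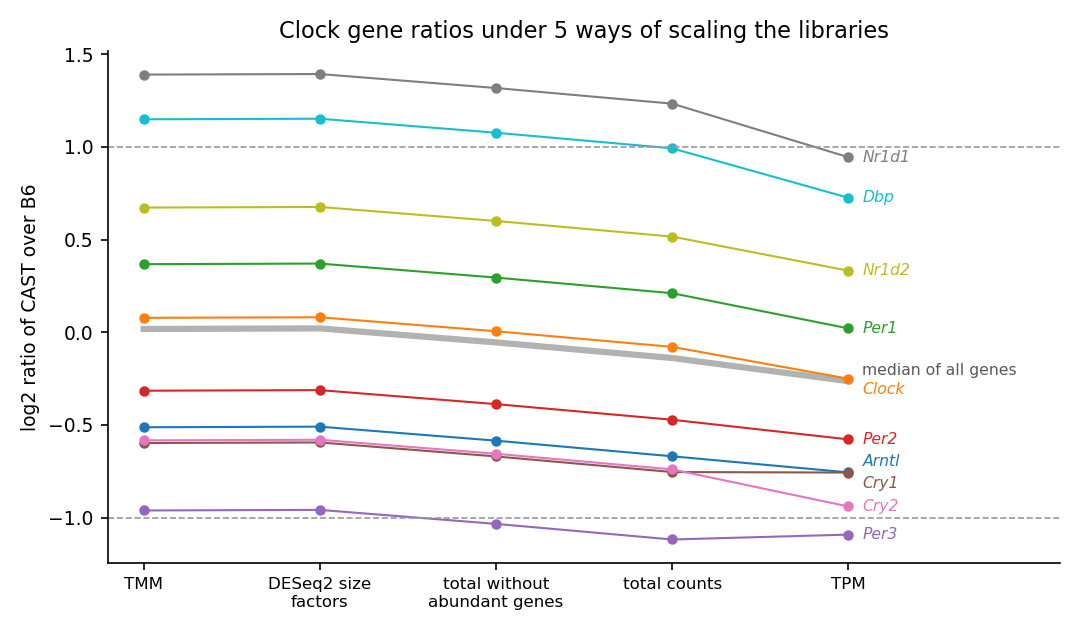
Log2 ratio of CAST over B6 of the 10 clock genes (thin lines) and of the median of all genes (thick grey line) under 5 ways of scaling, with dashed lines at 2-fold. TPM has 1 added. The median of all genes is 0.02 with TMM and -0.26 by TPM, and the clock genes move down with it, so that Clock stays beside it while Nr1d1 lies at 1.39 with TMM and 0.94 by TPM.

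Among the transcripts of the clock genes the same one was the most abundant in both libraries in every gene with several. Nr1d1-201, the coding transcript, held 89.4% of the TPM of Nr1d1 in CAST and 82.4% in B6. Nr1d1-202, a noncoding transcript of 781 bases, had 629 counts in CAST and 346 in B6 and a log2 ratio of 0.57, below that of the gene. Cry2-201 held 88.0% of the TPM of Cry2 in CAST and 83.9% in B6, and Nr1d2-201 88.6% of that of Nr1d2 in CAST and 90.1% in B6. Per1 was spread over 3 main transcripts, of which Per1-201 held 48.1% in CAST and 47.2% in B6. The files hold a single transcript each for Arntl, Clock, Per2 and Cry1. How RSEM's division of reads among transcripts varies is not given, and CAST reads were counted against the B6 genome. The part of either in these values was not tested.

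The promoters below are shown because E-box, D-box and ROR elements are known to link clock genes to each other. RefSeq windows (GRCm38.p6) from 250 bases before to 50 after an annotated start were found for 9 of the 10 genes, all but Per2, with 13 windows in all. They were searched on both strands for the E-box CACGTG (in 7.15% of 32851 windows of all genes), the related CACGTT (4.68%), the D-box TTANGTAA (2.32%) and the ROR element AGTAGGTNA (0.591%). Only these exact patterns were searched, and that of the ROR element is narrow. Its 2 matches in the Arntl window printed below differ only at its free base N. Whether the pattern was set apart from these sites cannot be told, so the 0.591% does not measure how unusual Arntl is. Other forms of the same elements are therefore not marked, and a window without a match may still hold one. Where a gene had more than 1 window, the one with the most matches is printed. Each is printed 5′ to 3′ on the strand of the gene, with matches in capitals.
Nr1d1, chr11:98775328-98775627, minus strand: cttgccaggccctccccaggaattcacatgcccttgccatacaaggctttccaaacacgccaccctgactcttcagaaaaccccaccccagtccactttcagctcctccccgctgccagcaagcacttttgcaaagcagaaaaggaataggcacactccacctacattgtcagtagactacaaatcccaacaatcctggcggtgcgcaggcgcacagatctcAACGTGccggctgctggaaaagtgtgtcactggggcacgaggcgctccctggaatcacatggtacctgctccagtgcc
Per1, chr11:69098699-69098998, plus strand: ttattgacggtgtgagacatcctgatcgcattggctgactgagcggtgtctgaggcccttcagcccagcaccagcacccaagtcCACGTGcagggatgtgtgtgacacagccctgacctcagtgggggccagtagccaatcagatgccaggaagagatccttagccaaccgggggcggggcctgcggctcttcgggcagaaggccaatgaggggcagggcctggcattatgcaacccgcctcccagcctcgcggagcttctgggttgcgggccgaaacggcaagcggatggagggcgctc
Per3, chr4:151044616-151044915, minus strand: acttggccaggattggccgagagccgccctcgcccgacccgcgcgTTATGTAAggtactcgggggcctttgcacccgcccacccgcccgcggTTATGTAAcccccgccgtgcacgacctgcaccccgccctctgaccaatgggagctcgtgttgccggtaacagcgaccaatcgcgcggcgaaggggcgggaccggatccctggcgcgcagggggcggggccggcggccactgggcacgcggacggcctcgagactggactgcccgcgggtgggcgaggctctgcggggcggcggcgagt
Cry1, chr10:85185005-85185304, minus strand: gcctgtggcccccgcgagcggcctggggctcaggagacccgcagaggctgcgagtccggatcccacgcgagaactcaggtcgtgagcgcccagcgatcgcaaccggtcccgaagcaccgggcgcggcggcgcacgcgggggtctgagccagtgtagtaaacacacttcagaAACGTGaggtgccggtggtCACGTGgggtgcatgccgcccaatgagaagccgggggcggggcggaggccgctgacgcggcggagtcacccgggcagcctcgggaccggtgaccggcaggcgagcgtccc
Arntl, chr7:113207261-113207560, plus strand: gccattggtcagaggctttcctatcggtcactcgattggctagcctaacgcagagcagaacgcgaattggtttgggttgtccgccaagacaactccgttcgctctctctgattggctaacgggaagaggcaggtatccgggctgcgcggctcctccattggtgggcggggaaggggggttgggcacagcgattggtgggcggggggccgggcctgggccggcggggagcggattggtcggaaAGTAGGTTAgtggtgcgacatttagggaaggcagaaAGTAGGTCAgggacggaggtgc

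The Arntl window shown held 2 ROR elements, the kind of site that NR1D1 and NR1D2 bind, 8 bases upstream and 28 bases downstream of its start. The window of the other Arntl start held 1, 38 bases downstream. In these libraries Nr1d1 was higher and Arntl lower in CAST. The Per3 window held 2 D-boxes, 205 and 158 bases upstream, the kind of site that DBP binds, while Dbp was higher and Per3 lower in CAST. Per1 had an E-box 166 bases upstream in the window shown and no match in that of its other start. Cry1 had an E-box 60 bases and a CACGTT element 79 bases upstream. Nr1d1 had a CACGTT element 28 bases upstream, and Cry2 one 166 bases upstream. Genes with an E-box of either kind in a window thus included 2 that were higher in CAST, Nr1d1 and Per1, and 2 that were lower, Cry1 and Cry2. In the windows of Clock, Nr1d2 and Dbp none of the 4 motifs was found. A match of letters is a description and does not show binding in these islets, and CAST variants in these windows were not examined. The part of these elements in the ratios of Arntl, Per3 or any other clock gene was not tested.

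Beyond the 10 genes, 32 further genes of the clock were looked at, of which 31 had 20 or more counts, while Rorb had 6 in CAST and 7 in B6. Of the 31, 1 was 2-fold or more higher in CAST (3.23%, against 7.18% of all genes) and 1 was 2-fold or more lower (3.23%, against 5.99%). Their median log2 ratio was 0.09. At 1.5-fold 3 of the 31 were higher, beside 12.4% of all genes, and 4 were lower, beside 12.8%. Most of the 31 had more than 1000 counts over both libraries, but Arntl2 and Tspan4, the genes past 2-fold, had fewer. Among all genes past that minimum 3.99% were 2-fold or more higher and 2.81% lower, and at 1.5-fold 8.11% and 8.25%. These stricter shares are of a set without Arntl2 and Tspan4. Beside all genes with 100 or more counts, the counts of the 31 were near the background.

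Relatives of the activators were lower in CAST. Npas2, a relative of Clock, had 374 counts in CAST and 481 in B6 (log2 -0.65, -0.85 to -0.45). Arntl2, a relative of Arntl, had 70 counts in CAST and 153 in B6 (log2 -1.41). Rora, which encodes an activator at ROR elements, went the other way, with 6009 counts in CAST and 3801 in B6 (log2 0.37, 0.31 to 0.43). These 3 genes had a median of -0.65.

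Of 7 other repressor genes none was 2-fold apart, beside 7.18% of all genes higher and 5.99% lower. Their median of 0.02 turned negative with total counts (-0.13) and by TPM (-0.28). Bhlhe40, which encodes the E-box repressor DEC1, had 9618 counts in CAST and 5330 in B6 (log2 0.56, 0.51 to 0.61). Ciart, an inhibitor of the activator dimer, had 606 counts in CAST and 352 in B6 (log2 0.49, 0.30 to 0.69). The lowest were Timeless (-0.44), with 442 counts in CAST and 491 in B6, and Ncor1 (-0.06), the corepressor that NR1D proteins recruit. Nfil3, which represses D-box genes, differed by 0.06, and Bhlhe41, with 6453 counts in CAST and 5285 in B6, was within counting error of equality (-0.05 to 0.05).

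Relatives of Dbp differed less than Dbp itself. Tef had 6994 counts in CAST and 4827 in B6 (log2 0.25, 0.19 to 0.30), and Hlf had 698 in CAST and 589 in B6 (-0.04, -0.20 to 0.12). Of 9 genes for kinases and ubiquitin ligases that set the stability of PER and CRY proteins, none was 2-fold apart (beside the same 7.18% and 5.99% of all genes). Above 0 were 5 of the 9, beside 51.7% of all genes tested. Their median of 0.04 turned negative with total counts (-0.12) and by TPM (-0.19). The highest were Fbxw11 and Csnk2b (0.17 and 0.16), and the lowest Csnk2a1 (-0.64) and Csnk1e (-0.13). Csnk1e encodes a casein kinase that phosphorylates PER, as does Csnk1d, which lay at 0.04.

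Among 10 measured genes known to follow the clock in many tissues 9 were above 0, beside 51.7% of all genes tested. Their median of 0.33 was -0.02 by TPM. Tspan4 had 342 counts in CAST and 121 in B6 (log2 1.21, 0.91 to 1.52), and Lonrf3 319 in CAST and 135 in B6 (0.95, 0.66 to 1.25). Wee1, a cell cycle kinase gene with E-boxes known in the mouse, had 792 counts in CAST and 400 in B6 (0.70, 0.52 to 0.87). Noct, which encodes nocturnin, was the exception, with 12991 counts in CAST and 20189 in B6 (log2 -0.93, -0.96 to -0.89; -0.81 with its near-identical copy added). The next lowest, Por, lay at 0.06.

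**Figure D5:**
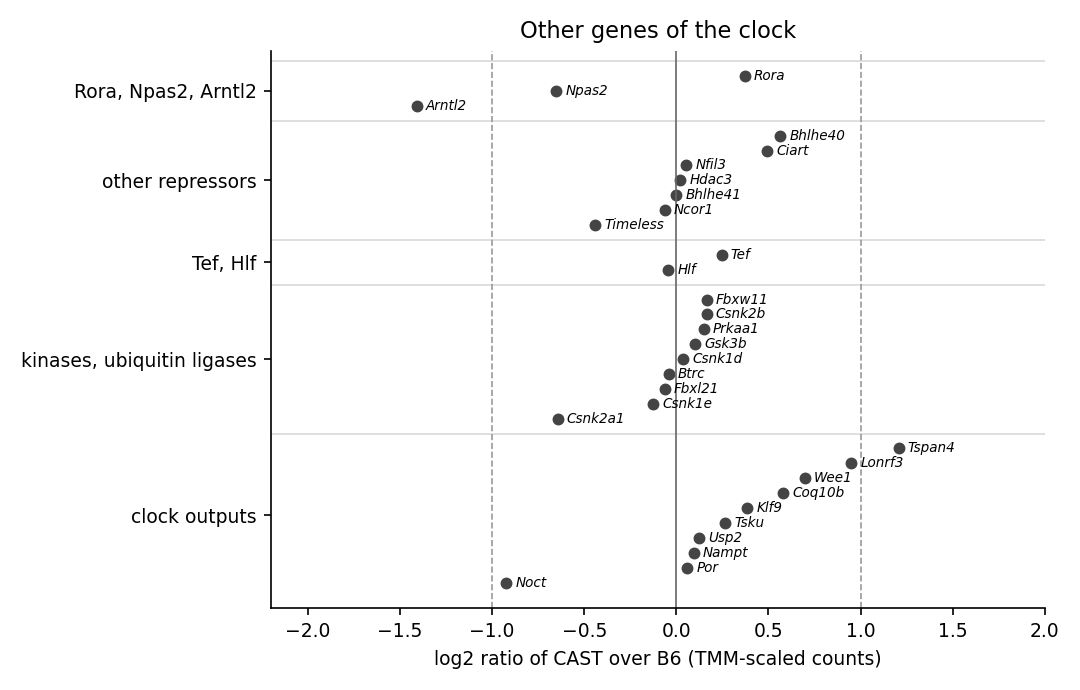
Log2 ratio of CAST over B6 (1 point per gene) of the 31 other clock genes measured, by group, with dashed lines at 2-fold. Arntl2 at -1.41 lies at the lower end and Tspan4 at 1.21 at the upper end, while the kinases and ligases lie between -0.64 and 0.17.

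Genes that respond to signals known to act on Per1 and other clock genes went both ways, and the part of such signals in the ratios above was not tested. The counts above 0 that follow stand beside 51.7% of all genes tested. Of 8 genes that respond to glucocorticoids 7 were above 0. Per1 and Klf9, which are among the 8, were also counted in the groups above. The median of the 8 was 0.38, which was 0.22 with total counts and 0.03 by TPM. The highest was Zbtb16, with 831 counts in CAST and 69 in B6 (log2 3.29, 2.95 to 3.68), followed by Fkbp5 (0.55), and the lowest were Tsc22d3 (-0.49) and Dusp1 (0.16). Immediate early genes are induced when tissue is taken apart. Of 13 such genes 4 were above 0 and the median was -0.23 (-0.39 with total counts and -0.61 by TPM), with a summed level of 2304 TPM in CAST and 3627 TPM in B6. Btg2 (-0.98) and Nr4a2 (-0.74) were the lowest and Ier3 (0.87) and Crem (0.36) the highest. Of 8 genes that respond to temperature 5 were above 0. Rbm3, a cold-inducible gene, had 11271 counts in CAST and 3855 in B6 (log2 1.26, 1.21 to 1.31). Hspa1a lay at 0.67, or 0.58 with its near-identical copies added. Hspa8 lay at -1.06, which became 0.03 with its near-identical copies added, and Hsp90aa1 at -0.72, which became -0.68.

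Markers of the cell types in the islet preparations differed as well, and of all genes tested 51.7% were above 0. All 8 acinar markers were above 0 and none had 0 counts, with a sum of 13044 TPM in CAST and 4259.5 TPM in B6 and a median log2 ratio of 1.86. The enzyme genes, 6 of the 8, were at least 2-fold higher in CAST, beside 7.18% of all genes. The transcription factor genes differed less. Bhlha15 lay at 0.17, with 19.4 TPM in CAST and 21.9 TPM in B6, and Ptf1a at 0.43 (-0.06 to 0.95). All 6 fibroblast markers were above 0 (35.7 TPM in CAST and 23.8 TPM in B6, median 0.99), as were 3 of 4 endothelial markers (159.5 TPM in CAST and 167.1 TPM in B6). All 4 beta cell markers were above 0, with a median of 0.49. Of the 4 alpha cell markers 1 was above 0 (38037 TPM in CAST and 62957 TPM in B6). Of the 3 delta and PP cell markers, Sst (-0.90) and Hhex (-0.79) were lower in CAST and Ppy (0.64) was higher. Leukocyte and duct markers summed to 11.0 and 14.1 TPM in CAST, and to 16.2 and 20.1 TPM in B6. Clock genes are expressed in most cell types, and the part of these shares in their ratios was not tested.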

How the data were processed

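RNA of pancreatic islets was sequenced in 1 library per strain, CAST and B6. The authors deposited 94545 Ensembl transcripts per library, with no header. Beside the transcript and gene IDs, the first value of each row is its expected count, made by the authors with RSEM on GRCm38 according to the submitters' processing notes. The second value in the deposited files sums to 1 and was read as the fraction of all transcripts, which TPM rescales. No source used here names the aligner, tool versions, annotation release or whether strand was used.

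Values were summed per gene and counts rounded to whole numbers. Of 38924 gene IDs 37607 matched GENCODE M21 (GRCm38), and the rest held 0.172% of counts in CAST and 0.176% in B6. TMM factors came from edgeR 4.0.16 (R 4.3.3). Intervals are exact Clopper-Pearson intervals of the CAST share of counts at 95%, turned into ratios. For ratios of 2 genes they use the normal approximation of the log count ratio. Reads are not independent molecules, so all cover counting error only. No clock gene had a near-identical copy, found with minimap2 2.31 at 95% identity over 200 bases and 50% of the shorter transcript. The computation of ratios was checked on simulated counts with known folds.

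The members and lists were chosen with earlier results of these data known. Named were all clock genes, the highest and lowest 2 of each list and those past 2-fold, and some further list members and transcripts chosen after their values were seen. Some further genes of the clock are not reported here. Alternatives were DESeq2 1.42.0 size factors, total counts, total counts without the 8 genes over 0.5% of counts, TPM with 1 added, a pseudocount of 5, thinning, other count filters and transcript subsets. Work was done with matplotlib 3.10.9, pandas 2.3.3, scipy 1.17.1 and numpy 2.4.6 under Python 3.11.15.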

Additional observations from a re-analysis of the deposited data

How the results depend on the processing

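Across 75 recomputed ratios of single clock genes, the sign turned in 2, both of Clock, with total counts (-0.079) and by TPM (-0.25). Of the others, 43 moved by less than the mean distance from the ratio to the 2 ends of its counting interval and 30 by more. The count of clock genes at least 2-fold higher in CAST was 2, and 1 with total counts and 0 by TPM. The count at least 2-fold lower was 0, and 1 with total counts, with total counts without abundant genes and by TPM, and 2 at 1.5-fold. The difference of group medians, 0.74, was 0.24 with Cry1 and Cry2 added, and 0.44 to 1.03 with each gene left out in turn. The number of all genes at least 2-fold higher in CAST, 1061, was 463 by TPM with 1 added, 3748 at 1 or more counts and 433 at 1000 or more. The number at least 2-fold lower, 885, was 1403 at 20 or more counts, 3102 at 1 or more and 305 at 1000 or more; the minimum of 1000 was chosen after seeing the data. Medians of the lists near 0 turned sign. Those of the other repressors were -0.13 with total counts, -0.050 without abundant genes and -0.28 by TPM, those of Tef and Hlf -0.056 with total counts and -0.13 by TPM, those of kinases and ligases -0.12 with total counts, -0.037 without abundant genes and -0.19 by TPM, and those of outputs and of temperature genes -0.020 and -0.10 by TPM. The cause of these moves beyond the shift of the median of all genes was not tested. No paired analysis was possible because each strain has 1 library. Depth limits little here, since the clock gene with the fewest counts, Cry1, had 872 in CAST and 1080 in B6, but the lack of replicates does.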
